A study of Mus musculus with 9 samples.

Results

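The genes described here encode the subunits of the transcription factor AP-1 and other immediate early transcription regulators: *Fos*, *Fosb*, *Fosl1*, *Fosl2*, *Jun*, *Junb*, *Jund*, *Atf3*, *Egr1* and *Ier2*. They were taken by name, not by their values. Of these 10 genes, 9 are among the 14771 named genes of the deposited expression table, each as 1 RefSeq transcript, and *Jund* was not analysed here. All 9 reached the level needed for testing, which was 10 normalized reads in at least 3 libraries. *Fosl1* met this only with the astroglia counted, its tumour libraries all being under 10.

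AP-1 is a dimer of basic leucine zipper proteins. FOS proteins (c-Fos, FosB, Fra-1 from *Fosl1* and Fra-2 from *Fosl2*) do not pair with each other and need a JUN partner (c-Jun, JunB or JunD), whereas JUN proteins can also pair among themselves or with ATF proteins. Many of these genes are immediate early genes: growth factors, depolarization and stress induce their transcription within minutes, without new protein synthesis, through kinases of the MAP kinase family and factors such as SRF and CREB. In the nervous system *Fos*, *Egr1* and *Junb* are widely used as records of recent stimulation.

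The study compared 3 groups of mouse cells by RNA sequencing, with 3 libraries in each. AG is astroglia of strain C57BL/6 whose genotype is given as p53 DN with Nf1 shRNA. BS and OB are tumour cells of the brainstem and of the olfactory bulb, from a 129;C57BL/6 mix with Foxr2 overexpression and p53 cko. All groups therefore carry a p53 alteration, of a different kind in AG and in the tumour cells, and strain, Nf1 shRNA, Foxr2 and tissue differ together between them, so that their parts cannot be told apart. The age of the animals, the promoter or Cre behind each alteration, and whether libraries came from separate animals or cultures are not stated by the labels. The p-values measure the spread between these libraries, which may be technical.

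The table held 11300273 to 19868282 reads per library. *Foxr2* had 1 read in the AG libraries together, against 4505 to 12567 normalized reads in each tumour library. *Nf1* was at 1464 ± 127 normalized reads in AG, 5309 ± 830 in BS and 5823 ± 2434 in OB (SD, n = 3). The labelled cell types were checked against marker lists. Oligodendrocyte precursor markers (8 of 8 in the table) summed to 17.4 to 22.5 normalized reads in AG, with *Olig2* and *Ptprz1* at 0, and to 46172 to 95546 in the tumour libraries. Not every marker was high in each tumour library: in BS_287 *Sox10* was at 3.35 and *Gpr17* at 0. *Pdgfra*, with 5 RefSeq transcripts, was at 1.11 to 97.8 in the tumour libraries. Astrocyte markers (8 of 10) summed to 8602 to 8693 in AG, nearly all from *Gja1*, *Sox9* and *Slc1a3*. The defining astrocyte genes *Gfap*, at 0.834 to 3.27, and *S100b*, at 26.0 ± 1.14 (SD, n = 3), were low in AG. *Gfap* has 2 RefSeq transcripts and *S100b* 1, and the median level of genes with 2 transcripts was lower in this table (given below). Mesenchymal and fibroblast markers (9 of 10) had sums between 96011 and 109818 in AG, between 586 and 4485 in BS and between 99.5 and 550 in OB, with *Thy1* at 0 in AG and *Dcn* at 0 in both tumour groups. The AG sums came mostly from *Acta2* and *Col1a1*, with means of 53782 and 40954, while *Dcn* and *Lum* were at 15.5 and 1.99. *Thy1* went the other way and gave most of each BS sum, at 3094, 513 and 4380 in BS_287, BS_295 and BS_296. It was called higher in BS than in AG (limma adjusted p = 0.0037). In bulk RNA, fewer cells of a type and less RNA per cell cannot be told apart. The library OB_257 stood apart from the other tumour libraries, with astrocyte markers summing to 6749 against 17391 to 34933 in the other 5. Of the OB_257 sum, 6616 came from *S100b*, the highest value of that gene in any library. *Slc1a3* at 88.4, *Sox9* at 25.4 and *Gja1* at 1.11 were each lower in OB_257 than in every other tumour library. BS_287 was the other tumour library with low *Egr1* and *Ier2*, and results that turn on either library are given with and without it.

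Of the 9 AP-1 and immediate early genes, 4 were lower in OB than in AG (*Fosl1*, *Fosl2*, *Junb* and *Ier2*) and 4 were lower in BS than in AG (*Fosl1*, *Fosl2*, *Junb* and *Atf3*), by limma with Benjamini-Hochberg adjusted p under 0.05. None was called higher. *Fos*, *Fosb*, *Jun* and *Egr1* were called in neither comparison. Over all 10576 genes tested, 34.9% were called in OB against AG (16.0% higher and 19.0% lower) and 35.1% in BS against AG (15.6% higher and 19.5% lower). Leaving out *Fosl1*, which met the filter only with AG, 3 of 8 were lower in each comparison. The median log2 change of the 9 genes was -1.49 in OB and -1.70 in BS, beside -0.01 and -0.03 over all genes tested. Both comparisons use the same AG libraries, so they are not independent of each other.

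**Figure D1:**
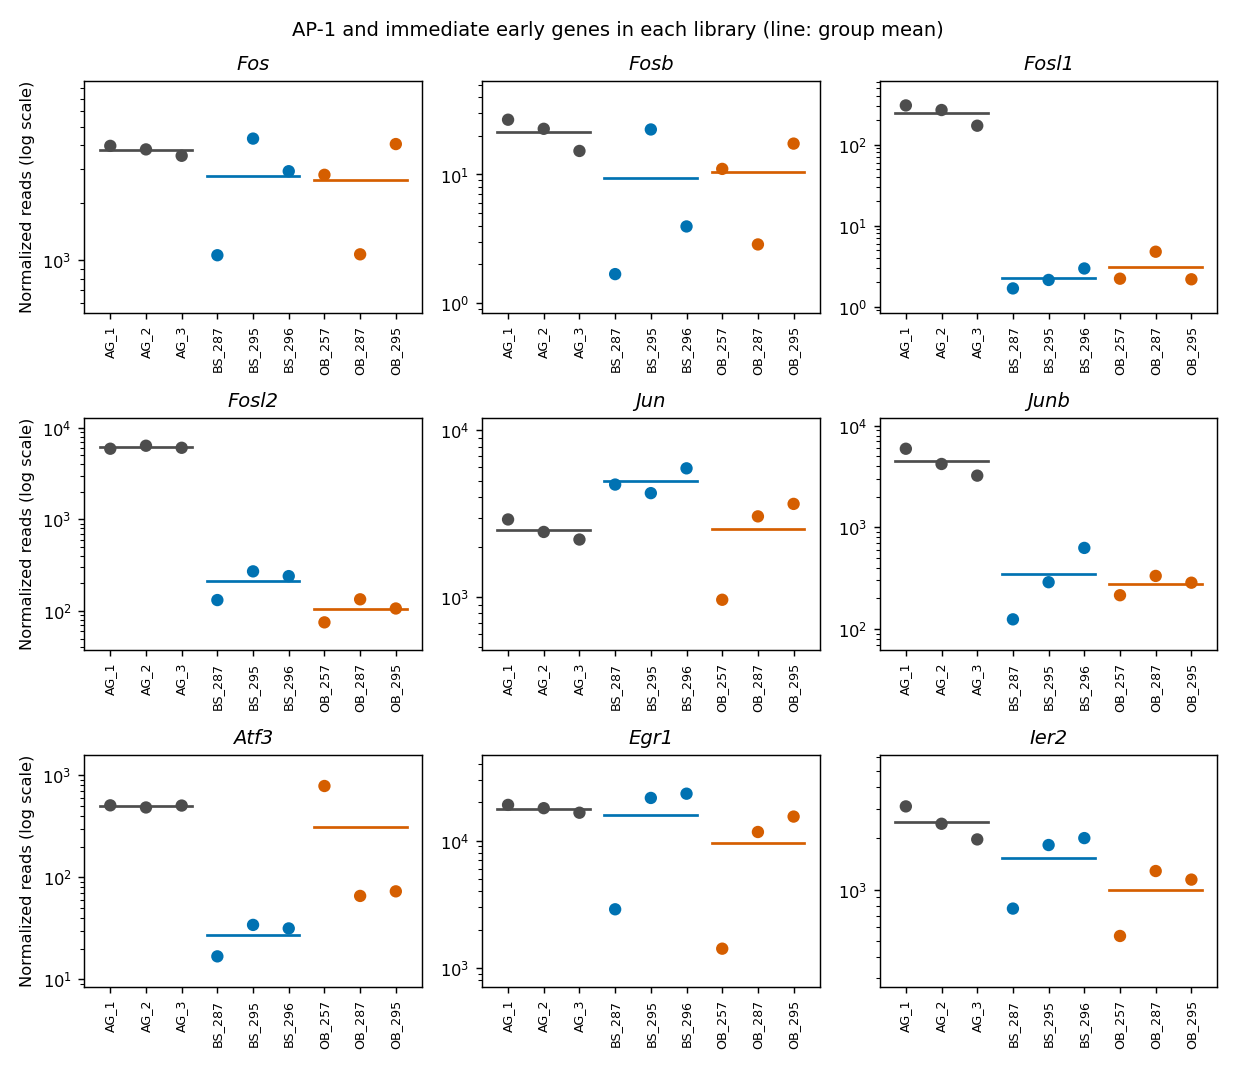
Normalized reads of the 9 measured genes in each library on a log axis, 1 panel per gene, with AG, BS and OB side by side and a line at each group mean. *Fosl1*, *Fosl2* and *Junb* form a high AG group and a low tumour group, whereas the AG and tumour ranges of *Fos* and *Fosb* overlap.

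c-Fos is the short-lived founding member of its family. *Fos* stood at 3962, 3797 and 3516 normalized reads in the AG libraries, at 1062, 4325 and 2920 in BS_287, BS_295 and BS_296, and at 2796, 1073 and 4049 in OB_257, OB_287 and OB_295. The AG libraries were close together, and each tumour group held 1 library above all of them and 1 library far below. The log2 change was -0.71 ± 0.58 (SE) in OB against AG (limma adjusted p = 0.379) and -0.66 ± 0.58 in BS (limma adjusted p = 0.414). The 95% interval of the difference ran from -2.04 to 0.62 in OB and from -1.99 to 0.67 in BS. Single libraries moved both values: the change was -0.16 in OB without OB_287 and -0.08 in BS without BS_287. *Fos* was thus not distinguishable between the groups at this spread.

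*Fosb* encodes FosB and, by splicing, the stable variant deltaFosB. It was low throughout, at 26.7, 22.7 and 15.2 normalized reads in AG, 1.68, 22.4 and 3.94 in BS and 11.1, 2.85 and 17.4 in OB. The groups overlapped, and its low values are not read as low expression, since *Fosb* has 2 annotated RefSeq transcripts. Rows of genes with 1 transcript had a median of 258 normalized reads in this table, against 12.6 with 2, though single genes with 2 stood high. *Fosb* differed by -1.21 ± 0.86 in OB and -1.70 ± 0.86 in BS on the log2 scale (SE; limma adjusted p = 0.303 and 0.159). Without BS_295, the BS library where it was highest, *Fosb* was lower in BS by -2.60 (limma adjusted p = 0.0289).

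*Fosl1* encodes Fra-1, a FOS protein without the transactivation domain of c-Fos and a common marker of invasive and mesenchymal cell states. Its levels were 304, 267 and 171 normalized reads in AG, 1.68, 2.13 and 2.96 in BS and 2.21, 4.76 and 2.17 in OB. The tumour values rest on 2, 2 and 3 reads in BS and 2, 5 and 2 in OB, so the gene was close to undetected in every tumour library. The ratio of reads scaled for library size, AG over tumour, was 80.9 for OB (95% exact interval 42.4 to 178) and 114 for BS (54.9 to 284), intervals that cover counting error only. The log2 changes on the log2(value + 1) scale, which understates changes of low genes, were -5.96 ± 0.41 in OB (SE; limma adjusted p = 2.11e-05) and -6.23 ± 0.41 in BS (limma adjusted p = 1.50e-05). *Fosl1* overlaps *Ccdc85b* in the RefSeq annotation, and no source used here says whether the counting used strand. *Ccdc85b* had 0 to 13.3 normalized reads in AG and 1.11 to 14.9 in the tumour libraries.

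*Fosl2* encodes Fra-2, the other FOS protein without that domain. It stood at 5916, 6378 and 6058 normalized reads in AG, at 132, 271 and 240 in BS and at 75.2, 134 and 107 in OB. No tumour library came near the AG level. Its mean was 58.1-fold lower in OB than in AG and 28.5-fold lower in BS, with log2 changes of -5.89 ± 0.32 (SE; limma adjusted p = 5.68e-06) and -4.89 ± 0.32 (limma adjusted p = 1.33e-05). Mesenchymal marker sums were also higher in AG than in every tumour library, as given above, and their part in the *Fosl2* and *Fosl1* results was not tested.

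To show what lies before the start of a FOS gene that was not called and of one that fell in both tumour groups, the 250 bases upstream of *Fos* (chr12:85473640-85473889, plus strand) and of *Fosl2* (chr5:32136222-32136471, plus strand) are given from RefSeq, build GRCm38.p6. They are written 5′ to 3′ on the strand of the gene, with matches to the motifs searched in capitals. Capitals in *Fos* mark TGACGT, the core of a CREB/ATF site, at 66 to 61 bases before the start, and the TATA box TATAAA at 33 to 28 bases before it. Capitals in *Fosl2* mark GCGNGGGCG, the EGR site, at 79 to 71 bases before the start. The window of *Fosb*, a FOS gene called in neither comparison with AG, held the same match at 50 to 42 bases before its start. It is not printed, nor is that of *Jund*, which had no match to the motifs searched.
Fos: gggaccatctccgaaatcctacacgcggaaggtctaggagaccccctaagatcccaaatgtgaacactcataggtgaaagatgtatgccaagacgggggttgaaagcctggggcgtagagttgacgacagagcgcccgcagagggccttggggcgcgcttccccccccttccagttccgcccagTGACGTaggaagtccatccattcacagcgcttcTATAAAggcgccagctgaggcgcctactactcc
Fosl2: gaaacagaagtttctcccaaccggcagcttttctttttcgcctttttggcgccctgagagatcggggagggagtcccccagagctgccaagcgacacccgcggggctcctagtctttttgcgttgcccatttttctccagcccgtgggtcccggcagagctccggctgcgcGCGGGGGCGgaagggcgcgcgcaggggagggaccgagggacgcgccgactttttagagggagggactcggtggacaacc
Both strands of each window were searched for 7 motifs. The motifs TGACGT and TGACATCA were chosen after the sequences were seen. Of 32536 mouse promoter windows of this length, 6.5% hold TGACGT, 12.3% TATAAA and 4.74% GCGNGGGCG. The AP-1 site TGANTCA is in 6.73%, the AP-1 variant TGACATCA in 2.84%, the full CREB site TGACGTCA in 1.56% (it contains TGACGT) and the CArG box, which SRF binds, in 1.48%. A match describes these letters and is not a measured binding site.

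c-Jun is the main transactivating JUN protein and the substrate that named the JNK kinases. *Jun* stood at 2923, 2460 and 2215 normalized reads in AG, at 4734, 4205 and 5924 in BS and at 964, 3051 and 3624 in OB. All BS libraries were above all AG libraries and above all OB libraries, whereas OB_257 lay below every AG library and the other OB libraries above them. In BS against AG the log2 change was 0.96 ± 0.45 (SE; limma adjusted p = 0.127, 95% interval -0.06 to 1.98), which was not called. *Jun* in BS was called in a fit of the compared groups only (limma adjusted p = 0.00658) and in a fit without OB_257 (limma adjusted p = 0.0042). In OB against AG the change was -0.19 ± 0.45 (limma adjusted p = 0.769) and its sign was not stable: it was 0.40 without OB_257 (limma adjusted p = 0.161) and between 0.0028 and 0.045 with upper-quartile rescaling, edgeR or DESeq2.

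*Junb* encodes JunB, a weaker transactivator that can oppose c-Jun in cell growth. It stood at 5930, 4198 and 3224 normalized reads in AG, at 124, 288 and 627 in BS and at 214, 332 and 285 in OB. The AG and tumour libraries were far apart, and the BS and OB ranges overlapped. *Junb* was 16.1-fold lower in OB (log2 change -3.98 ± 0.53, SE, limma adjusted p = 0.000676) and 12.9-fold lower in BS (-3.93 ± 0.53, limma adjusted p = 0.000716). *Jun* and *Junb* thus had opposite signs in BS against AG, of which only the *Junb* change was called.

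The same 250 bases are given for *Jun* (chr4:95052223-95052472, minus strand) and *Junb* (chr8:84978749-84978998, minus strand), the JUN genes that stood at different levels. Capitals in *Jun* mark TGACATCA, an AP-1 variant, at 45 to 38 bases before the start. None of the 7 motifs has a match in the *Junb* window, which says only that these letters are not in it.
Jun: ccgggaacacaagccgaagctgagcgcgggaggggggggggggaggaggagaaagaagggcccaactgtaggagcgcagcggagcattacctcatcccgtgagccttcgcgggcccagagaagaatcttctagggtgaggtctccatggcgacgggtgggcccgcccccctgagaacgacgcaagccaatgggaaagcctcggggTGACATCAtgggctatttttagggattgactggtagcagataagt
Junb: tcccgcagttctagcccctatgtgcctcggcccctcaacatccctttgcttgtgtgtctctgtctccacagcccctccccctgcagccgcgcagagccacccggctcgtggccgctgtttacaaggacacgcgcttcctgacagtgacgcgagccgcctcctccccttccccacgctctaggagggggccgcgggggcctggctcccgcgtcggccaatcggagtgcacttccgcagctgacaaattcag

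The make-up of each family was compared per kilobase of transcript, so that genes of different length could be set side by side. *Fos* made up 62.4% ± 1.08 of the FOS family sum in AG (SD, n = 3), 96.9% ± 0.925 in BS and 97.7% ± 1.92 in OB. *Fosl2* made up 32.8% ± 1.96 in AG, 2.80% ± 0.949 in BS and 1.85% ± 1.73 in OB, and *Fosl1* 4.61% ± 1.09 in AG against 0.112% and 0.209%. The AG and tumour shares did not overlap: *Fos* had 61.6% to 63.6% in the AG libraries and 95.5% to 98.9% in the tumour libraries. Among *Fos*, *Fosl1* and *Fosl2*, *Fos* had the largest share in every library, whereas the larger share of the JUN pair passed from *Junb* in AG to *Jun* in every tumour library. *Jun* made up 24.9% ± 3.09 of the sum of *Jun* and *Junb* in AG, 89.7% ± 5.66 in BS and 81.2% ± 8.34 in OB. These shares leave out *Jund* and take the low values of *Fosb* as deposited, and no test was made of them.

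**Figure D2:**
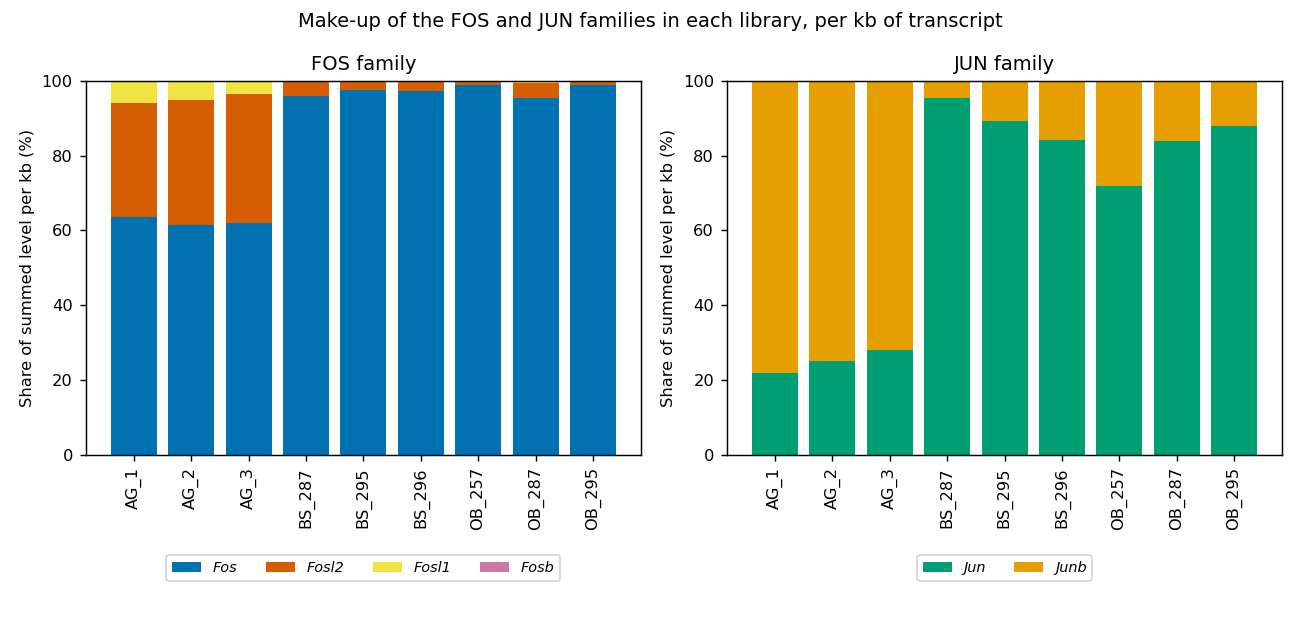
Share of each gene in the summed level per kilobase of its family, in percent, 1 bar per library, for the FOS family on the left and *Jun* with *Junb* on the right. *Fos* fills at least 95.5% of every tumour bar and *Jun* at least 71.8% of it, against at most 63.6% and 28.0% in AG.

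The summed level per kilobase also differed in its spread. The FOS family summed to 2857 ± 145 normalized reads per kilobase in AG, 1350 ± 790 in BS and 1273 ± 708 in OB (SD, n = 3). *Jun* and *Junb* summed to 3255 ± 870 in AG, 1745 ± 399 in BS and 952 ± 466 in OB.

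ATF3 is a stress-induced partner of JUN proteins that often represses transcription. *Atf3* stood at 508, 484 and 505 normalized reads in AG, at 16.8, 34.1 and 31.5 in BS and at 786, 65.7 and 72.8 in OB. OB_257 was above every AG library, while the other tumour libraries were all far below them. *Atf3* was 18.2-fold lower in BS (log2 change -4.20 ± 0.86, SE, limma adjusted p = 0.00603). In OB against AG it differed by -1.67 ± 0.86 (limma adjusted p = 0.163), and without OB_257 it was lower by -2.83 (limma adjusted p = 0.000727). Its promoter window (chr1:191183334-191183583, minus strand) is given for the match close to the start. Capitals mark ACGTCA, which is TGACGT on the other strand, at 8 to 3 bases before the start.
Atf3: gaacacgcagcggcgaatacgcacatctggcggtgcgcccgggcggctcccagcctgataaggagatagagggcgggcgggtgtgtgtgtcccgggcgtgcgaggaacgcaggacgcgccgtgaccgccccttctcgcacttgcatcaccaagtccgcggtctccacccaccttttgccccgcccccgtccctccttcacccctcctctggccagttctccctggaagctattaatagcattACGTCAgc

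EGR1 is a zinc finger factor and an immediate early gene controlled by SRF and MAP kinase signalling. *Egr1* stood at 19041, 17949 and 16532 normalized reads in AG, at 2892, 21592 and 23313 in BS and at 1420, 11674 and 15423 in OB. BS_287 and OB_257 were far below the rest, and the other BS libraries were above all AG libraries. All OB libraries were below all AG libraries, but *Egr1* was not called in OB (-1.49 ± 1.01, SE, limma adjusted p = 0.285) or in BS (-0.65 ± 1.01, limma adjusted p = 0.652). Without OB_257 the OB difference was -0.41 (limma adjusted p = 0.732), and without BS_287 the BS difference turned to 0.33 (limma adjusted p = 0.808).

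IER2 is a nuclear protein induced together with *Fos* in many cells. *Ier2* stood at 3090, 2441 and 1974 normalized reads in AG, at 772, 1830 and 2010 in BS and at 533, 1286 and 1144 in OB. All OB libraries were below all AG libraries, and BS_296 reached into the AG range. *Ier2* was 2.53-fold lower in OB (log2 change -1.41 ± 0.44, SE, limma adjusted p = 0.0378). That call was lost after upper-quartile rescaling (log2 change -1.22, limma adjusted p = 0.0548) and without the variance trend (-1.41, limma adjusted p = 0.0504). It was also lost without OB_257 (-1.02, limma adjusted p = 0.0906), without OB_295 (-1.57, limma adjusted p = 0.0552) and without any 1 AG library (-1.57 to -1.25, limma adjusted p from 0.0698 to 0.129). The call held without both BS_287 and OB_257 (-1.02, limma adjusted p = 0.00614). In BS it differed by -0.80 ± 0.44 (limma adjusted p = 0.199).

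**Figure D3:**
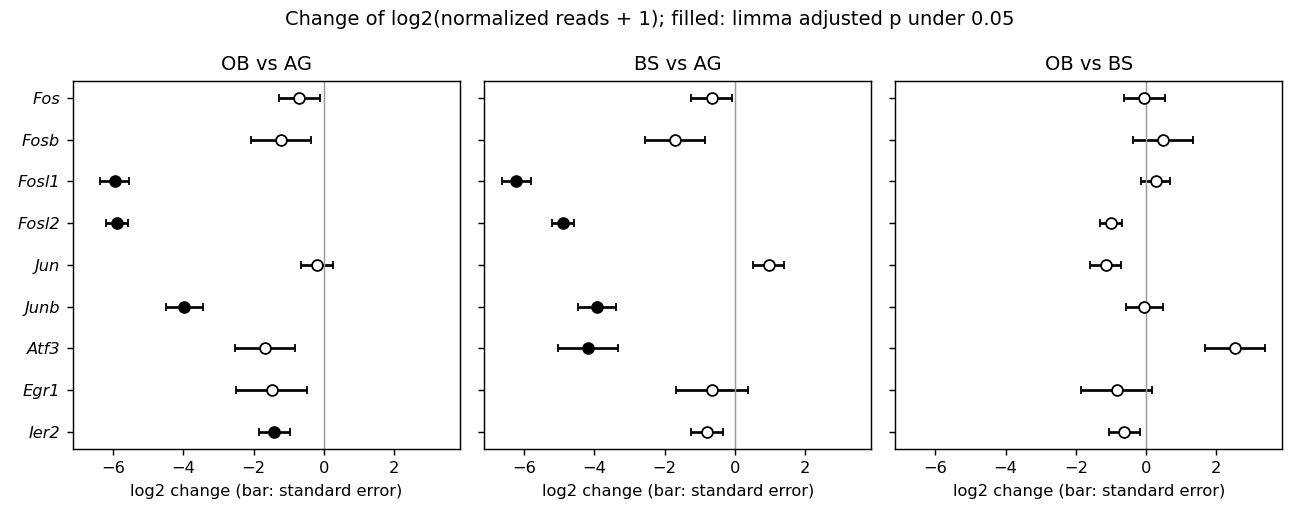
Log2 change of each of the 9 genes on the log2(value + 1) scale, with bars of 1 standard error from limma, for OB against AG, BS against AG and OB against BS. Filled points mark an adjusted p under 0.05: *Fosl1*, *Fosl2* and *Junb* are filled in both comparisons with AG, *Ier2* in OB, *Atf3* in BS, and none in OB against BS.

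Groups that do not overlap give a coarser picture. In OB against AG, 5 of the 9 genes had all OB libraries below all AG libraries (*Fosl1*, *Fosl2*, *Junb*, *Egr1* and *Ier2*), where 30.8% of all genes tested did so and 58.3% were apart in either direction. In BS against AG, 4 were apart and lower (*Fosl1*, *Fosl2*, *Junb* and *Atf3*; 31.8% of all genes) and *Jun* was apart and higher (26.7% of all genes), where 58.4% were apart in either direction. In OB against AG none was apart and higher (27.5% of all genes). *Fosl1* met the filter only with the AG libraries counted, so its place in both counts of lower genes was largely fixed by the filter.

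Per kilobase, *Egr1* had the highest mean of the 9 genes in every group, at 5876 ± 414 normalized reads per kilobase in AG, 5248 ± 3731 in BS and 3131 ± 2388 in OB. In AG it was followed by *Junb* (2460 ± 758), *Fos* (1783 ± 107), *Ier2* (1644 ± 368), *Fosl2* (936 ± 36.3), *Jun* (794 ± 113), *Atf3* (252 ± 6.61), *Fosl1* (133 ± 36.9) and *Fosb* (5.69 ± 1.53). The library ranges of *Junb* and *Fos*, of *Fos* and *Ier2*, and of *Fosl2* and *Jun* overlapped, and those of the other neighbours did not. In BS *Jun* (1554 ± 276), *Fos* (1314 ± 776) and *Ier2* (1010 ± 439) came next, with ranges that overlapped each other and that of *Egr1*. *Junb* (191 ± 142), *Fosl2* (32.8 ± 11.2) and *Atf3* (13.9 ± 4.72) followed without overlap, and *Fosb* (2.47 ± 3.01) and *Fosl1* (1.21 ± 0.348) overlapped each other. In OB *Egr1*, *Fos* (1252 ± 709), *Jun* (798 ± 439) and *Ier2* (649 ± 263) overlapped. *Atf3* (155 ± 209) and *Junb* (153 ± 32.7) overlapped as well, and *Fosl2* (16.1 ± 4.52) lay below both. The *Atf3* mean in OB rests mostly on OB_257, at 396 against 33.1 in OB_287 and 36.7 in OB_295. That OB_257 value lay within the OB ranges of *Jun* and *Ier2*. *Fosb* (2.76 ± 1.93) and *Fosl1* (1.63 ± 0.795) came last in OB and overlapped each other. The place of *Fosb* in these orders is uncertain in all groups, for the reason given with its values.

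Between the tumour groups, none of the 9 genes was called in OB against BS, where 0.0% of all genes tested were called by limma and 1019 genes had an unadjusted p under 0.05. edgeR on the recovered reads called 0 genes, and DESeq2 called 233 (2.23%). None of these was among the 8 members to which DESeq2 gave an adjusted p, and *Atf3* was not 1 of the 8. The largest differences were in *Atf3*, at 2.52 ± 0.86 on the log2 scale (limma adjusted p = 0.436, 95% interval 0.57 to 4.48), *Jun*, at -1.16 ± 0.45 (limma adjusted p = 0.477, -2.17 to -0.14), and *Fosl2*, at -0.99 ± 0.32 (limma adjusted p = 0.399, -1.71 to -0.27). Without OB_257 the difference was 1.36 for *Atf3* (limma adjusted p = 0.376) and -0.56 for *Jun* (limma adjusted p = 0.541). All OB libraries were above all BS libraries for *Atf3* (5.36% of all genes tested were so) and below them for *Jun* (4.63%), and 9.99% of all genes were apart in either direction. For *Fos* the difference was -0.05 (95% interval -1.38 to 1.28) and for *Junb* -0.05 (-1.26 to 1.16), so that changes of over 2-fold in either direction lie within the intervals.

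The members varied together in part. Over the 6 tumour libraries, log2 levels of *Egr1* and *Ier2* had a Pearson r of 0.964 (Spearman 0.943), and 0.857 without BS_287 and OB_257. Both genes were lowest in OB_257, then in BS_287. *Jun* and *Atf3* had an r of -0.960 (Spearman -0.886), and -0.892 without BS_296 and OB_257. *Fos* and *Fosb* had an r of 0.894 (Spearman 0.943), and *Fos* and *Egr1* one of 0.386 (Spearman 0.657, and r 0.577 without BS_287 and OB_287). These are descriptions over 6 libraries of mixed origin, and *Fosb* rests on few reads. The pairs named are only some of all pairs of the 9 genes, and others were weak or turned sign. *Jun* had an r of 0.715 with *Egr1* and 0.756 with *Ier2*, but -0.498 and -0.331 without BS_296 and OB_257. *Jun* and *Atf3* were each apart between BS and OB, and the part of the groups in their r was not tested.

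**Figure D4:**
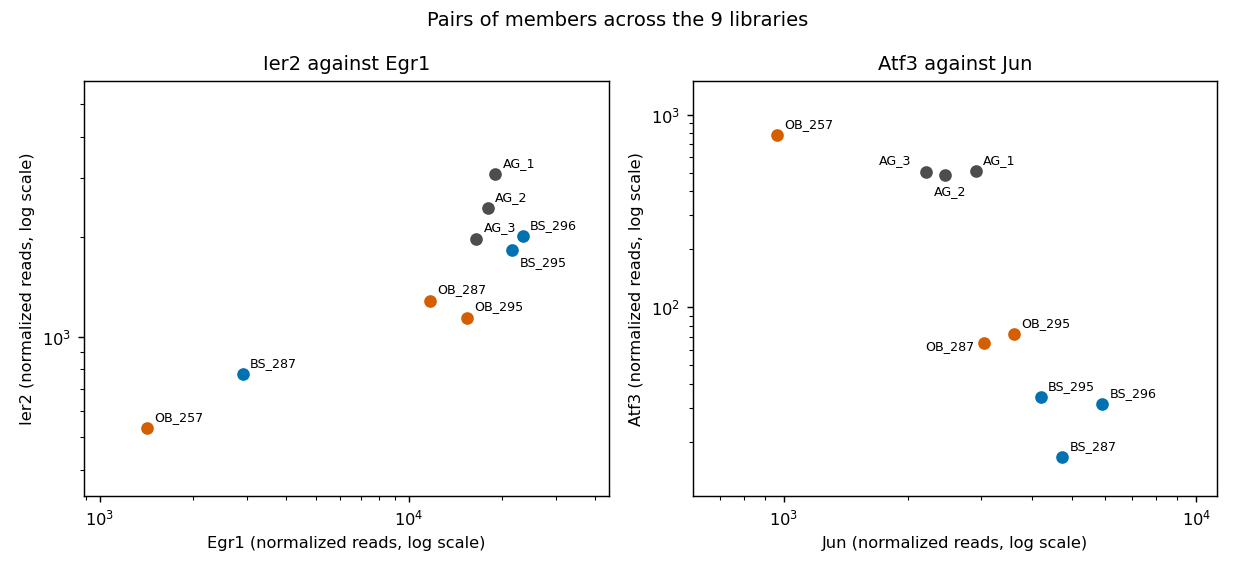
Normalized reads of *Ier2* against *Egr1* and of *Atf3* against *Jun* in the 9 libraries, both axes on a log scale, each point labelled with its library and coloured by group. BS_287 and OB_257 lie at the low end of *Egr1* and *Ier2*, and OB_257 alone combines the lowest *Jun* with the highest *Atf3*.

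Genes outside the set with the most similar pattern were found by the Pearson r of log2 levels over all 9 libraries, the first 3 per member. *Fosl1* was closest to *Muc5ac* (0.997), *Mal2* and *Ccn5*, and *Fosl2* to *Rab22a* (0.997), *Cav1* and *Plekhf1*. *Junb* was closest to *Edf1* (0.995), *Mocos* and *Ifngr2*, and *Atf3* to *Rab20* (0.987), *Ggact* and *Arfgef2*. For the genes not called in either comparison, *Fos* was closest to *Hcfc2* (0.974), *Jun* to *Klhdc4* (0.974) and *Egr1* to *Zfp462* (0.983), and *Ier2* was closest to *Mboat7* (0.974). The 9 libraries form an AG and a tumour block, which alone gives a high r to any pair of genes that differ between them.

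Other basic leucine zipper partners of these proteins formed a separate list. Of its 11 tested genes, 5 were lower in OB than in AG and 4 in BS, with none higher, where 19.0% and 19.5% of all genes tested were lower. The median change was -0.15 and -0.76. Without any 1 AG library, 3 were lower in OB and 2 in BS. With *Maff* and *Atf5* left out, which needed the AG libraries for the filter, 4 of 9 were lower in OB and 3 of 9 in BS. *Mafk*, a small MAF protein that lacks a transactivation domain, fell from 1707 ± 134 normalized reads in AG to 391 ± 60.8 in OB (SD, n = 3; limma adjusted p = 0.000342) and 240 ± 65.5 in BS (limma adjusted p = 6.89e-05). *Maff*, of the same class, fell from 57.4 ± 16.9 to 6.37 ± 4.41 and 7.94 ± 4.03 (limma adjusted p = 0.00224 and 0.00425), but met the filter only with the AG libraries counted. *Nfe2l2*, the oxidative stress factor NRF2, fell from 4025 ± 105 to 1918 ± 666 and 1886 ± 725 (limma adjusted p = 0.0266 and 0.0249).

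Of 23 other immediate early genes tested, 14 were lower and 2 higher in OB than in AG, and 13 were lower and 0 higher in BS. Over all genes tested, 19.0% were lower and 16.0% higher in OB and 19.5% lower and 15.6% higher in BS. Without *Maff*, which needed AG for the filter, 13 and 12 of 22 were lower. Their median log2 change was -2.24 in OB and -1.78 in BS. *Ccn2*, a matricellular protein and YAP target, fell from 8898 ± 216 normalized reads in AG to 40.5 ± 43.4 in OB and 15.2 ± 11.2 in BS (SD, n = 3; limma adjusted p = 0.000822 and 0.000624). *Ccn1*, of the same family, fell from 43516 ± 893 to 955 ± 703 and 563 ± 488 (limma adjusted p = 0.00262 and 0.00113). *Klf4*, a zinc finger factor, fell from 2811 ± 302 to 102 ± 102 and 207 ± 97.6 (limma adjusted p = 0.00311 and 0.0182), and *Gadd45b*, a growth arrest gene, was 22.8-fold lower in BS (limma adjusted p = 9.27e-05).

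The 2 genes called higher in OB are zinc finger and nuclear receptor factors induced by neuronal activity. Both met the filter only with the tumour libraries counted, and neither was called in BS. In OB *Egr4* was at 17.8 ± 5.23 normalized reads (SD, n = 3) while no AG library had a read of it, which makes it at least 6.12-fold higher against a floor of 3 reads per AG library (limma adjusted p = 0.00511). *Nr4a3*, named after its values were seen because it completes this count, was at 7.33 ± 3.82 in AG and 120 ± 138 in OB (limma adjusted p = 0.0194). Its OB libraries stood at 21.0, 60.9 and 278, so that mean rests mostly on OB_295. The BS libraries had 18.5, 33.1 and 33.5 of *Nr4a3*, all above every AG library, and 0, 11.7 and 5.91 of *Egr4*. *Nr4a3* has 2 RefSeq transcripts, so the limit given for *Fosb* applies to it. Neuronal markers (6 of 8 in the table) summed to 37.5 to 52.3 normalized reads in AG, with *Rbfox3* and *Snap25* at 0. Both genes were also low in the tumour libraries, at no more than 13.4 and 6.71. The marker sums lay between 602 and 3454 in BS and between 1872 and 3698 in OB. These sums came mostly from *Elavl3*, *Syp* and *Stmn3*, with means of 1780, 599 and 446 in OB and 1122, 562 and 317 in BS. *Stmn2* was lower in every OB library than in every AG library, while its BS mean was 47.9. The part of neuronal markers in the *Egr4* and *Nr4a3* results was not tested. Without any 1 AG library, fewer of the immediate early genes could be called: 11 lower and 1 to 2 higher in OB, and 8 lower in BS.

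Of 13 tested kinases, phosphatases and SRF partners that act upstream of these genes, 8 were lower in OB than in AG and 5 in BS, and none was higher, beside 19.0% and 19.5% lower over all genes tested. *Mapk3*, the kinase ERK1, fell from 11171 ± 390 normalized reads in AG to 4052 ± 1522 in OB and 3625 ± 1163 in BS (SD, n = 3; limma adjusted p = 0.0055 and 0.00352). *Elk1*, the ETS factor that binds beside SRF, fell from 3516 ± 135 to 1346 ± 202 and 1442 ± 158 (limma adjusted p = 0.000332 and 0.000508). *Dusp4*, a phosphatase of MAP kinases that they induce, fell from 1632 ± 48.2 to 173 ± 112 in OB (limma adjusted p = 0.00323). In BS *Dusp4* was at 638 ± 479, which was not called (limma adjusted p = 0.0649). Without any 1 AG library, 4 to 5 of them were called in OB and 2 to 3 in BS.

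Of 16 tested textbook targets of AP-1, 8 met the filter only with the AG libraries counted, *Mmp3* among them. Of the other 8, 5 were lower and none was higher in each tumour group, beside 19.0% and 19.5% lower over all genes tested. Without any 1 AG library, 4 of these 8 were lower in OB and 3 to 4 in BS. *Mmp3*, a matrix metalloproteinase, had 0 reads in all 6 tumour libraries against 1658 ± 73.5 normalized reads in AG (SD, n = 3), at least 528-fold lower in OB and 574-fold lower in BS against a floor of 3 reads per library. *Areg*, an EGF receptor ligand, stood at 1210 ± 52.3 in AG, 15.6 ± 1.08 in OB and 7.16 ± 7.40 in BS (limma adjusted p = 0.000857 and 0.000225). These genes are also expressed by mesenchymal cells, whose marker sums were higher in AG, and the part of those cells in the result was not tested.

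Heat shock genes were read as a sign of stress at harvest. Of 9 tested, 2 (*Hspa1a* and *Hspb1*) met the filter only with the AG libraries counted. Of the other 7, 2 were lower in OB than in AG (1 without any 1 AG library) and 1 in BS, and none was higher, beside 19.0% and 19.5% lower over all genes tested. *Hspa1b*, an inducible HSP70 gene, fell from 198 ± 23.1 normalized reads in AG to 32.6 ± 13.3 in OB and 29.7 ± 20.7 in BS (SD, n = 3; limma adjusted p = 0.0101 and 0.00585). *Bag3*, a co-chaperone, fell from 3336 ± 329 to 177 ± 153 in OB (limma adjusted p = 0.0223). It stood at 1.11 in OB_257, 263 in OB_287 and 268 in OB_295. In BS *Bag3* was at 505 ± 246, with all BS libraries below all AG libraries, and was not called. *Hspa8*, *Hsph1*, *Hspe1*, *Hsp90aa1* and *Dnajb1* were not called in either comparison. Of these, *Hspa8*, *Hsph1* and *Dnajb1* have 2 RefSeq transcripts, so the limit given for *Fosb* applies to them. *Hspa8* had means of only 23.9 in AG, 26.1 in BS and 25.3 in OB. The part of heat shock in the results for *Fosl1*, *Fosl2* and *Junb* was not tested. No gene of the lists named here was called in OB against BS.

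**Figure D5:**
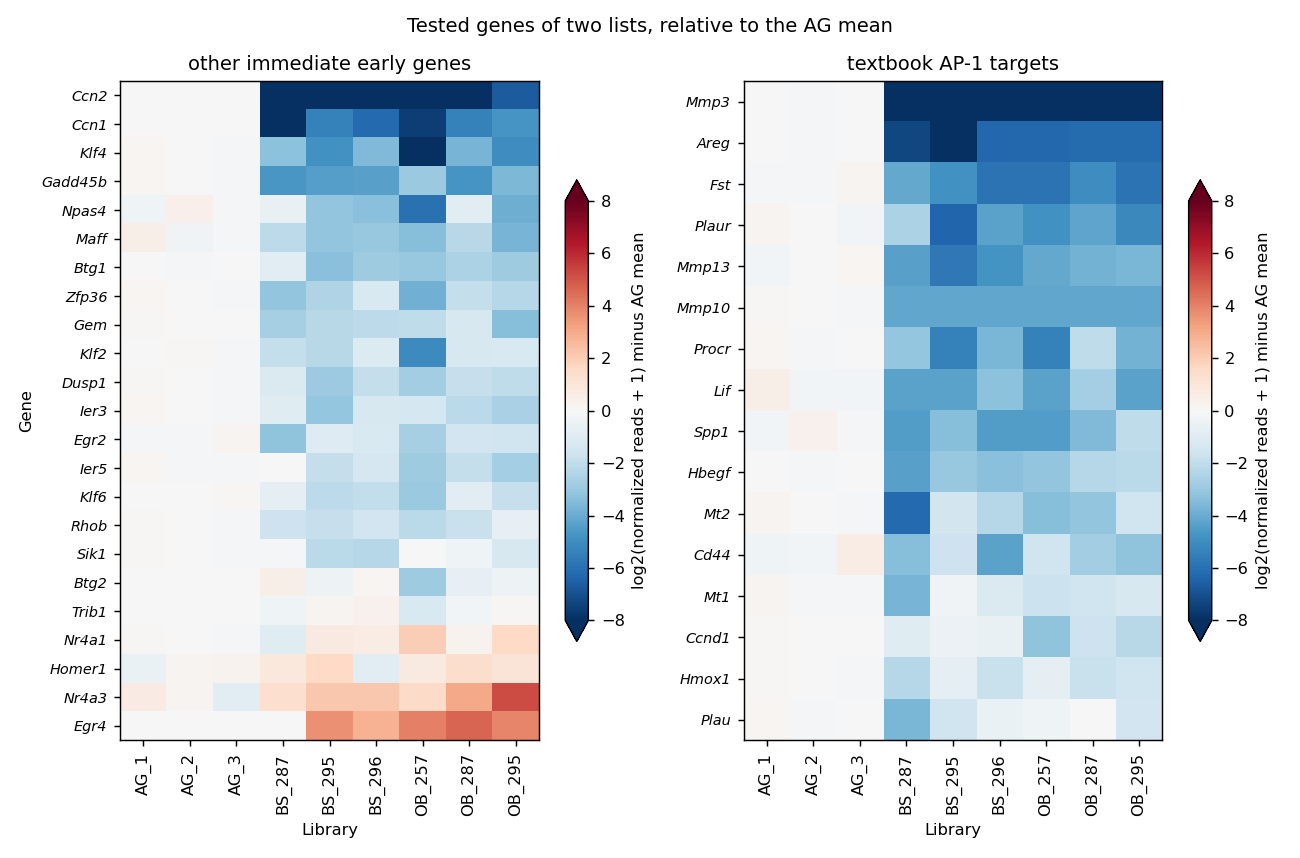
Log2 levels of other immediate early genes and textbook AP-1 targets in the 9 libraries, each relative to the mean of that gene over the AG libraries, with colours capped at 8 units. Most rows are low in all tumour libraries, and *Egr4* and *Nr4a3* are the rows called higher in OB.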

How the data were processed

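Total RNA from 9 libraries was sequenced after preparation with a stranded TruSeq kit, per the labels' protocols. Tools listed in the submitters' processing notes, without roles, are HISAT2 2.1.0, Subread 1.6.2 with featureCounts, DESeq2 1.20.0 and bcl2fastq 1.8.4, with build mm9. The annotation and strand setting were not given in the sources used here, and genes sharing reads may be affected. The authors deposited signal values, reads divided by 1 size factor per library, for 16260 transcripts. Undoing the factors gave whole reads for 100% of values within 0.05 reads. Transcripts were named from RefSeq (16198) or GENCODE (45), 17 without a name were left out, and rows of a symbol were added. Transcript lengths came from GENCODE.

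limma 3.58.1 (R 4.3.3) was fitted to log2(value + 1) of 10576 genes with at least 10 normalized reads in at least 3 libraries, in 1 fit of all 9 libraries with a variance trend, two-sided, with Benjamini-Hochberg adjustment per comparison. edgeR 4.0.16, which called 3724, 3679 and 0 genes in OB against AG, BS against AG and OB against BS, and DESeq2 1.42.0 (4281, 4270 and 233) were run on recovered reads as alternatives, beside other pseudocounts, filters, scalings, a replicate block and each library left out. The fits were tested on simulated data. The genes and lists were chosen with earlier results of these data known. Named outside the set are up to 4 called genes per list and comparison with the largest changes, not all of which are given (1 gene of the AP-1 target list is not reported here and was left out of its counts), and the 3 genes most similar to each member. Of the 10 genes, 7 had a RefSeq promoter entry. Figures were drawn with matplotlib 3.10.9.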

Additional observations from a re-analysis of the deposited data

How the results depend on the processing

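The calls of *Fosl2* and *Junb* held in both comparisons with AG under every alternative run, and that of *Fosl1* wherever it was tested. In OB against AG the 4 called members became 2 without any 1 AG library, where *Fosl1* no longer met the filter, and 2 to 4 over all libraries left out. With the filter at 2 libraries, added after the data were seen, there were 3. All genes called, 3695 in OB against AG and 3712 in BS against AG, ranged from 2086 to 4123 and from 2001 to 4344 with 1 library left out, and with that filter they ranged from 2498 to 2549 in OB and were 2449, 2429 and 2475 in BS. In OB against BS the 0 calls became 4 (pseudocount 0.5), 6 (pseudocount 5), 2 (no trend), 233 (DESeq2), 63 (without both BS_287 and OB_257, added after the data were seen) and 0 to 67 with 1 library left out. edgeR moved the median change of all genes by 0.10 in OB and 0.12 in BS. Upper-quartile rescaling moved it by 0.19 and 0.21, and the split of calls from 1687 higher and 2008 lower to 2158 and 1675 in OB, and from 1652 and 2060 to 2135 and 1674 in BS. The cause was not tested.

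Signs turned in results that were not called. *Jun* in OB against AG was 0.0028 with upper-quartile rescaling, 0.045 with edgeR, 0.020 with DESeq2 and 0.40 without OB_257 or without both libraries. *Egr1* in BS against AG was 0.33 without BS_287 or both. In OB against BS, *Fosb* was -0.18 without BS_287 and -0.35 without both, *Fos* 0.38, 0.10 and 0.50 without BS_295, BS_296 and OB_287, *Junb* 0.53 and 0.12 without BS_296 and OB_257, *Egr1* 0.24 without OB_257 and *Fosl1* -0.0097 without OB_287. With 1 library left out, these ranged from -0.55 to 0.40 (*Jun* in OB against AG), -1.17 to 0.33 (*Egr1* in BS against AG). Between the tumour groups they ranged from -0.63 to 0.50 (*Fos*), -0.18 to 1.38 (*Fosb*), -0.64 to 0.53 (*Junb*), -1.82 to 0.24 (*Egr1*) and -0.0097 to 0.42 (*Fosl1*). DESeq2 gave no adjusted p for *Atf3* in any of the comparisons. *Atf3* in OB, *Jun* in BS and *Ier2* in OB were called without both libraries.

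BS_287 shares its number with OB_287 and BS_295 with OB_295, with no label explaining the numbers. Deviations of same-numbered libraries correlated at 0.069 and 0.299, those of other pairs at -0.41 to 0.29. With the number as a replicate block, 251 genes were called in OB against BS, and *Junb*, *Egr1* and *Ier2* were at 0.70, 0.76 and 0.029, none called.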
